A study of Mus musculus with 4 samples.

Results

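The Cyp2c and Cyp2b genes of mouse ileum, the last stretch of the small intestine, were taken as every gene of the deposited table whose symbol starts with Cyp2c or Cyp2b. 5 of the 11489 genes in the table met this rule, Cyp2c55, Cyp2c65, Cyp2c66, Cyp2c68 and Cyp2b10, and they were held in 7 of 21160 transcript rows. The tested mice received pregnenolone-16α-carbonitrile (PCN), a synthetic steroid agonist of PXR (the pregnane X receptor, product of Nr1i2) in mice, at 40 mg/kg by intraperitoneal injection, 3 injections 8 h apart. Control mice received the vehicle, given as DMSO in the labels, with the solvent of PCN described as DMSO in corn oil. All mice were wild-type C57BL/6J, 8 weeks old, and whole ileum was collected 8 h after the last dose, so each library mixes epithelium with the other cells of the gut wall. There were 2 PCN libraries and 2 vehicle libraries (n = 2 per group throughout), and the labels do not say whether each came from 1 mouse, so the p-values measure only the spread between these libraries.

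Cytochrome P450 enzymes are heme proteins of the endoplasmic reticulum that add oxygen to steroids, fatty acids, bile acids and drugs, with electrons passed on by P450 oxidoreductase. Members of the Cyp2c family oxidise arachidonic acid to epoxides and hydroxy acids as well as many drugs, and Cyp2b10 is the mouse P450 best known for its response to phenobarbital through the constitutive androstane receptor. In liver, PXR and the constitutive androstane receptor act on overlapping sets of P450 genes by binding, together with the retinoid X receptor, to paired copies of a short DNA motif.

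GENCODE M21 lists 20 protein-coding genes of these families, 15 Cyp2c and 5 Cyp2b. Of these, 4 Cyp2c genes and 1 Cyp2b gene had a row, and the other 15 genes were not analysed here. The table kept a transcript where the larger of its group means was above 1 FPKM. The rows of Cyp2c55, Cyp2c65 and Cyp2c68 had both group means above 1 FPKM, whereas those of Cyp2c66 and Cyp2b10 had only the PCN mean above it. Cyp2c66 and Cyp2b10 could therefore enter the table only with higher PCN values, and no count over the members is offered as support for a difference.

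On mm10, Cyp2c55 (ENSMUSG00000025002.5) lies at chr19:39007019-39042693, Cyp2c65 (ENSMUSG00000067231.4) at chr19:39061015-39093944 and Cyp2c66 (ENSMUSG00000067229.3) at chr19:39113898-39187072, all on the plus strand. They are neighbours at one end of a cluster of 14 protein-coding Cyp2c genes and together span 180.1 kb. Cyp2c68 (ENSMUSG00000074882.3) lies 501.8 kb beyond Cyp2c66 in the same cluster, at chr19:39688834-39741054 on the minus strand, and Cyp2b10 (ENSMUSG00000030483.14) lies on another chromosome, at chr7:25897620-25926624 on the plus strand.

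**Figure D1:**
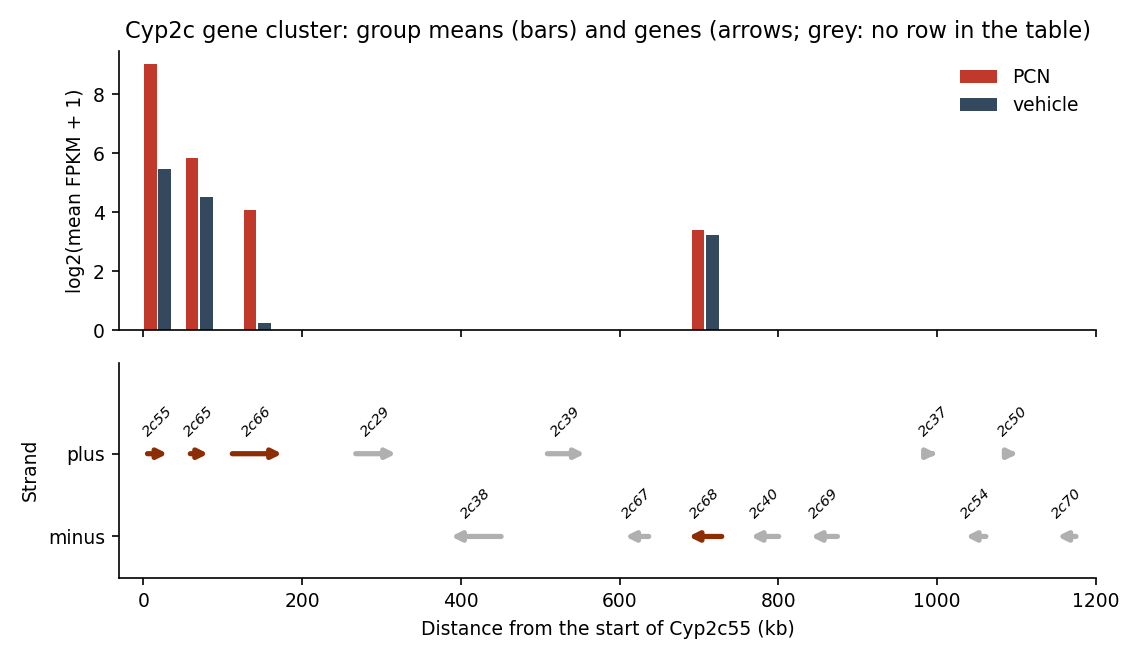
The Cyp2c cluster of chromosome 19 drawn as distance in kb from the start of Cyp2c55. Arrows mark the 14 protein-coding genes by strand, in brown where the gene had a row in the table and in grey where it had none, and bars give log2(mean FPKM + 1) for PCN (red) and vehicle (blue, n = 2 each). The 3 genes at the left end, Cyp2c55, Cyp2c65 and Cyp2c66, had separated bars, and those of Cyp2c68 were nearly level.

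How alike these genes are decides how well their reads can be told apart. The 30 coding bases around the cysteine that holds the heme iron (joined across the last intron, from the GENCODE M21 transcripts on mm10) are shown because all 5 genes carry this stretch and Cyp2c65 and Cyp2c66 cannot be told apart in it. The cysteine codon is in capitals.
Cyp2c55: ttctcaataggaaagcgaatgTGCgtggga
Cyp2c65: ttctcaacaggaaaacggattTGTgtggga
Cyp2c66: ttctcaacaggaaaacggattTGTgtggga
Cyp2c68: ttctcagcaggaaaacggattTGTgtggga
Cyp2b10: ttctcaacaggaaagcgcattTGTcttggt
Cyp2c65 and Cyp2c66 differed at 0 of these 30 bases, Cyp2c68 and Cyp2c65 at 1, Cyp2c55 and Cyp2c65 at 5, and Cyp2b10 and Cyp2c55 at 7. Over the whole coding sequence Cyp2c65 and Cyp2c66 were 96.3% identical, while Cyp2c55 was 75.9% identical to Cyp2c65 and 76.0% to Cyp2c66. Of all 50-base windows in the Cyp2c66 transcript, 24.0% occurred letter for letter in Cyp2c65, and 20.7% of the Cyp2c65 windows occurred in another gene. Cyp2c68 shared 43.3% of its windows, mostly with Cyp2c40, Cyp2c67 and Cyp2c69, to which its coding sequence was 98.1%, 97.2% and 96.5% identical and which had no row. Cyp2b10 shared 9.70% and Cyp2c55 only 1.13%. Of the 5 genes, Cyp2c55 was thus the one whose reads were least open to being divided with a relative, and the values of Cyp2c65, Cyp2c66 and Cyp2c68 are uncertain to the extent that shared reads were split among copies.

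The likeness of Cyp2c65 and Cyp2c66 extends in front of the genes. The 250 bases before the RefSeq start of each (GRCm38.p6, the same build as mm10, plus strand) are shown because the genes differed in level while these sequences are nearly the same. Capitals mark bases that differ between them or have no partner within the aligned stretch. The Cyp2c65 window is chr19:39060756-39061005 and the Cyp2c66 window is chr19:39113648-39113897.
Cyp2c65: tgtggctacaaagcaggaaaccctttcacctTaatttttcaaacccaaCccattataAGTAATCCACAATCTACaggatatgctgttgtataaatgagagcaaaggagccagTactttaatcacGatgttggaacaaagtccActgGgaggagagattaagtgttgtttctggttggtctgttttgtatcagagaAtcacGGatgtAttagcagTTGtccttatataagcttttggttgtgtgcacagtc
Cyp2c66: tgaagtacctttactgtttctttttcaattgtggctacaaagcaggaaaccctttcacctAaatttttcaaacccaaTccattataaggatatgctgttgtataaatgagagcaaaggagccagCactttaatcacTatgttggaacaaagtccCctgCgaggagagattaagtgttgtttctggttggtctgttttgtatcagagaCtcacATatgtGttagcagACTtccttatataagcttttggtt
They were 94.1% identical over 221 aligned bases, against 67.7% over 68 aligned bases for Cyp2c55 and Cyp2c65. Half-site letters of nuclear receptors were searched on both strands in the 250-base windows of all 5 genes. These were AGGTCA (found in 14.0% of 32851 RefSeq promoters of the same length), AGTTCA (in 11.8%), GGGTCA (in 11.6%) and GGTTCA (in 8.85%). None of the 5 windows held any of the 4, of which at least 1 stood in 38.6% of promoters. Pairs of these half-sites as direct repeats 3 or 4 bases apart, or as an everted repeat 6 bases apart, were absent too, and were found in 0.0396%, 0.067% and 0.0244% of promoters. TATAAA was found at position −29 from the start in Cyp2c55, −162 in Cyp2c65 and −150 in Cyp2c66, and in 12.4% of all promoters, but not in the windows of Cyp2c68 and Cyp2b10. An absent match says only that the letters are not in these windows.

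The libraries were checked before the members were compared. FPKM carry no read depth, but some low values moved in steps. If FPKM were scaled by library size alone, the best-fitting steps put PCN replicates 1 and 2 at 0.744 and 0.678 of the depth of vehicle replicate 1. These steps fitted 381 of 4196 low rows for PCN replicate 1 and 173 of 4092 for PCN replicate 2. The median over all steps tried was 36 rows for each. For vehicle replicate 2 no step stood out clearly. All 10 ileum epithelium markers were present, including Fabp6, the ileal bile acid binding protein. Their sum was 8075 and 7253 FPKM in PCN libraries against 12330 and 10731 FPKM in vehicle libraries. Most of that gap was Fabp6, with 4228 and 3652 FPKM in PCN libraries against 8059 and 6757 FPKM in vehicle libraries. Both PCN libraries were below both vehicle libraries for 6 of the 10 and above for 1. Over all genes tested, 19.1% were so below and 21.1% above. Of 12 liver markers 9 had no row, Alb among them, and of 10 colon markers 3 had no row (Aqp8, Hoxb13 and Hoxd10). One colon marker, Car1, had 106 and 60.7 FPKM in PCN libraries against 22.3 and 17.0 FPKM in vehicle libraries, and both PCN libraries were above both vehicle libraries for 3 of the 7 colon markers present and below for 0. The list summed to 1567 and 1158 FPKM in PCN libraries against 1241 and 1375 FPKM in vehicle libraries. Most of it was Ang4, a gene also of Paneth cells. Without Ang4 the list summed to 158 and 104 FPKM in PCN libraries against 76.0 and 65.2 FPKM in vehicle libraries. The gap in that sum lay in Car1. Smooth muscle markers were lower in both PCN libraries for 9 of 10 genes, summing to 226 and 283 FPKM in PCN libraries against 403 and 811 FPKM in vehicle libraries. The part of muscle content, of Car1 and of depth in the results that follow was not tested. A fit with a muscle covariate is given with the tests, but muscle content and PCN cannot be told apart in it.

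Cyp2c55, an enzyme that hydroxylates arachidonic acid near the end of its chain, was the dominant member. It had 569 and 467 FPKM in PCN libraries against 59.4 and 27.3 FPKM in vehicle libraries. The lower PCN library was 7.86 times the higher vehicle library, so the groups were far apart, and the 2 vehicle libraries themselves differed 2.18-fold. The means were 518 ± 72.3 FPKM with PCN and 43.4 ± 22.7 FPKM with vehicle (SD), a ratio of 11.9. By level, Cyp2c55 ranked 113 and 128 among 11489 genes in PCN libraries, against 1177 and 2431 in vehicle libraries. On the log2(FPKM + 1) scale the difference was 3.64 ± 0.36 (SE; 95% interval 2.71 to 4.58), second among 11103 genes tested, with an adjusted p of 0.0650 in limma after Benjamini-Hochberg adjustment over all of them, just outside the threshold of 0.05. In bulk tissue, more RNA per cell and more cells of the type that makes it cannot be told apart.

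Cyp2c65, the next gene along, was the second most abundant member. It had 60.6 and 52.4 FPKM in PCN libraries against 25.1 and 19.0 FPKM in vehicle libraries. Here too every PCN value lay above every vehicle value, the lower PCN library being 2.09 times the higher vehicle library, but the separation was smaller than that of Cyp2c55. The means were 56.5 ± 5.81 FPKM with PCN and 22.0 ± 4.33 FPKM with vehicle, a ratio of 2.57. The log2 difference was 1.33 ± 0.16 (95% interval 0.92 to 1.74; limma adjusted p = 0.0820), which did not pass.

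Cyp2c66, the third of the neighbours, was close to 0 without PCN. It had 19.9 and 11.9 FPKM in PCN libraries against 0.384 and 1.55e-06 FPKM in vehicle libraries. Its log2 difference of 3.80 ± 0.31 (95% interval 3.00 to 4.60) ranked first among all genes tested, and with an adjusted p of 0.0484 in limma it was the one member past the threshold and rose with PCN. Its rows entered the table only through their PCN means, so this call and rank describe a gene that had to be higher with PCN to be listed, and nothing further is read from them. No fold is given for it, since 1 vehicle value is an estimate near 0. The level of Cyp2c66 was nevertheless below that of Cyp2c65, which was 3.05 and 4.42 times as high in PCN libraries and 65.4 times as high in vehicle replicate 1.

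The 3 transcript rows of Cyp2c66 were not alike. The row TCONS_00062796 had 13.0 and 11.3 FPKM in PCN libraries against 0.384 and 1.55e-06 FPKM in vehicle libraries. The row TCONS_00064772 had 2.12 and 0.580 FPKM in PCN libraries and was listed at 0 in both vehicle libraries. The row TCONS_00064773 had 4.75 FPKM in PCN replicate 1 and was listed at 0 in the other 3 libraries. Most of the distance between PCN replicates 1 and 2 thus lay in the small rows, while the main row differed little between them. The identifiers of the small rows fall in a stretch of the numbering where 17 of the 20 nearest rows on chromosome 19 belong to minus-strand genes, although Cyp2c66 is on the plus strand, and table-wide 3922 of 21091 rows stood in a block of the opposite strand. Each Cyp2c66 row also had a value identical in all its digits to one of another gene in at least 1 library, as 17.4% of all rows had and no row of the other 4 members. Without all rows in such blocks, a setting added after seeing the data, the log2 difference of Cyp2c66 was 3.48 and its adjusted p 0.0125.

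Cyp2c68, further along the cluster, gave overlapping groups. It had 9.79 and 9.36 FPKM in PCN libraries against 9.68 and 7.22 FPKM in vehicle libraries, so only vehicle replicate 2 stood a little below the rest. The log2 difference was 0.17 ± 0.17 (limma adjusted p = 0.797), and its 95% interval, from −0.26 to 0.61, leaves room for changes of either sign. Vehicle replicate 2 set the sign, as without it the difference was −0.014.

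Cyp2b10 was the rarest member. It had 2.10 and 1.62 FPKM in PCN libraries against 0.560 and 0.000192 FPKM in vehicle libraries. Both PCN values were above both vehicle values, but all 4 were low, and the log2 difference of 1.19 ± 0.30 (95% interval 0.41 to 1.96) had an adjusted p of 0.309 in limma. Its rank among the changes was 68 of 11103.

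**Figure D2:**
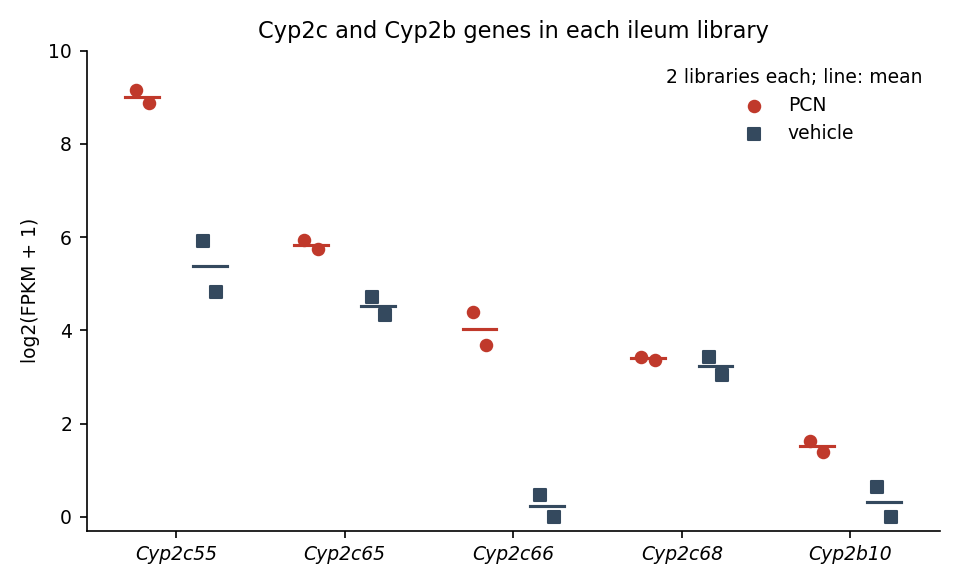
Levels of the 5 genes in each library as log2(FPKM + 1), with PCN (red circles) left of vehicle (blue squares) and a line at the mean of the 2 libraries of a group. Both PCN points lie above both vehicle points for Cyp2c55, Cyp2c65, Cyp2c66 and Cyp2b10, and the points of Cyp2c68 overlap.

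Of the 5 members, Cyp2c66 alone passed the threshold, and of all genes tested 0.135% did, 0.0811% higher and 0.054% lower (9 and 6 of 11103). Nothing is read from this count, since Cyp2c66 was listed only through its PCN mean, and of the 3 members listed through both means 0 passed in limma (2 had an unadjusted p under 0.05). Both PCN libraries were above both vehicle libraries for 4 of the 5, beside 21.1% of all genes tested, with 19.1% ordered the other way. Leaving out the members that could enter only through a high PCN mean, 2 of 3 were so ordered (Cyp2c55 and Cyp2c65). In all 5 genes replicate 1 was above replicate 2 in both groups, and for each gene the ratio of the replicates was larger among vehicle libraries, where vehicle replicate 2 also held the highest smooth muscle marker sum.

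These calls changed with the setting. The mean log2(FPKM + 1) of the muscle markers was 3.865 and 4.14 in PCN libraries against 4.724 and 5.518 in vehicle libraries. It separates the groups just as PCN does. A fit with it as a covariate therefore cannot tell PCN and muscle content apart, and its differences are not effects freed of muscle. Cyp2c66 lost its call when any 1 library was left out (adjusted p 0.136 to 0.486), and under a fit that took the mean level of the muscle markers as a covariate (log2 difference 2.91, adjusted p 0.382), in which limma called 0 genes of the table (777 at an unadjusted p under 0.05) and the differences of Cyp2c55, Cyp2c65 and Cyp2b10 were 2.14, 0.76 and 0.28. Cyp2c55 passed in 5 of 15 alternatives, among them a filter at a mean of 5 FPKM (adjusted p 0.0247) and the fit without vehicle replicate 1 (0.0223), and its difference was positive in all 15.

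**Figure D3:**
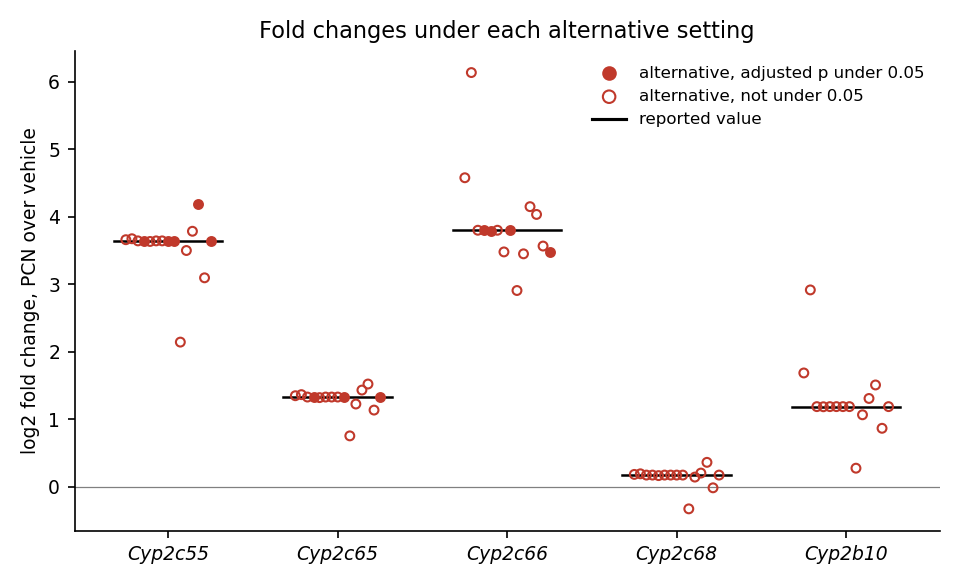
The log2 difference (PCN over vehicle) of each gene under every alternative setting, filled where the adjusted p was under 0.05 and open where it was not, with a black line at the reported value. Values of Cyp2c55 stayed between 2.14 and 4.19 and those of Cyp2c65 between 0.76 and 1.52, Cyp2c66 and Cyp2b10 spread upward with smaller pseudocounts (to 6.14 and 2.92), and Cyp2c68 stayed near 0.

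The summed level of the family followed Cyp2c55. The 5 genes summed to 662 and 542 FPKM in PCN libraries against 95.1 and 53.5 FPKM in vehicle libraries, which was 0.129% and 0.113% of all FPKM with PCN against 0.0197% and 0.00971% with vehicle. The means were 602 ± 84.4 FPKM and 74.3 ± 29.4 FPKM, a ratio of 8.10 (exact permutation test, two-sided p = 0.333, the smallest p that 2 against 2 libraries can give). Without Cyp2c55 the other 4 genes summed to 92.4 and 75.2 FPKM in PCN libraries against 35.7 and 26.2 FPKM in vehicle libraries, a ratio of 2.71. Of these 4, Cyp2c66 and Cyp2b10 were listed only through their PCN means, so the filter of the table itself widens this ratio. Cyp2c65 and Cyp2c68, listed through both means, had ratios of 2.57 and 1.13 on their own. The sum of all 5 genes and the shares that follow hold the same 2 filtered genes.

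The make-up of the sum differed between the groups as well. Cyp2c55 took 86.0% and 86.1% of it in PCN libraries against 62.5% and 51.1% in vehicle libraries, a difference of 29.3 percentage points (exact permutation p = 0.333, the smallest possible). The PCN libraries were almost equal and the vehicle libraries were not. Cyp2c65 took 9.16% and 9.66% with PCN against 26.4% and 35.4% with vehicle, although its own level was higher with PCN. Cyp2c68, whose level hardly differed, took 1.48% and 1.73% with PCN against 10.2% and 13.5% with vehicle. Cyp2c66 took 3.00% and 2.19% with PCN against 0.403% and 2.90e-06% with vehicle, and Cyp2b10 took under 1% in every library.

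**Figure D4:**
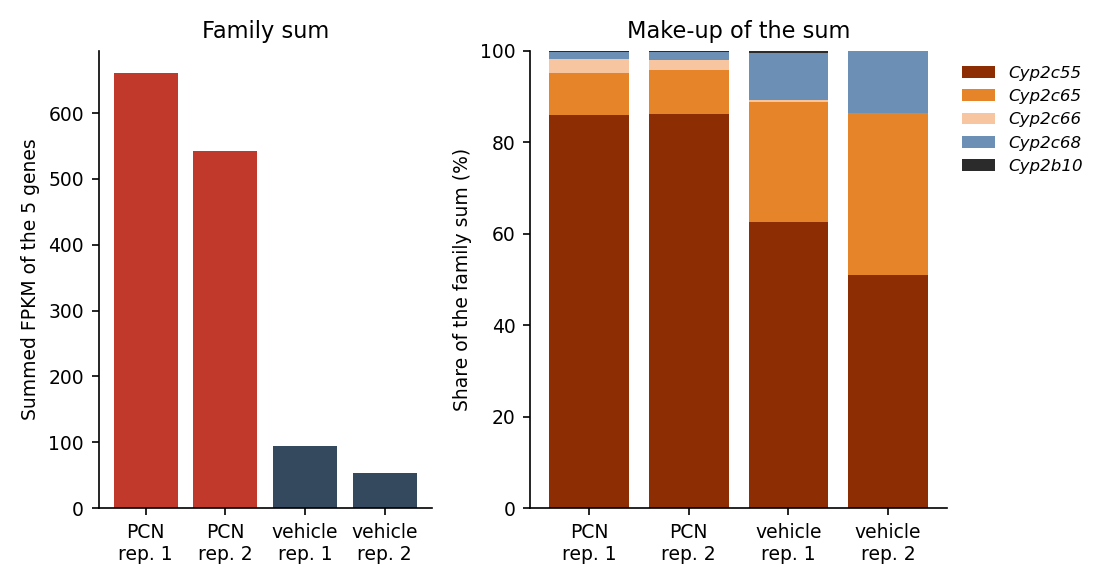
Left, the summed FPKM of the 5 genes in each library, PCN in red and vehicle in blue. Right, the share of each gene in that sum in percent, stacked from Cyp2c55 at the bottom to Cyp2b10 at the top. Cyp2c55 takes 86.0% and 86.1% in the PCN libraries and 62.5% and 51.1% in the vehicle libraries, where Cyp2c65 and Cyp2c68 take most of the rest.

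Ratios taken within a library, which no scaling between libraries can move, set the members against each other. Cyp2c55 was 9.39 and 8.91 times as high as Cyp2c65 in PCN libraries against 2.37 and 1.44 times in vehicle libraries. Cyp2c65 was 6.19 and 5.60 times as high as Cyp2c68 in PCN libraries against 2.59 and 2.62 times in vehicle libraries. Neither pair of groups overlapped, so the 3 genes stood in the order Cyp2c55, Cyp2c65, Cyp2c68 for the size of the difference, although with 2 libraries a group the exact permutation test could not go below the p of 0.333 that it gave for both ratios.

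Other P450 genes of families 1 to 4 were set beside the members. Of 17 with a row 14 were tested, and none was called, although 2 were called higher and 1 lower under 4 of the alternatives. Both PCN libraries were above both vehicle libraries for 5 of them and below for 8, beside 21.1% above and 19.1% below of all genes tested. Their median log2 difference was −0.27, against 0.00285 over all genes tested. Cyp3a11, the main drug-metabolising Cyp3a enzyme of mouse and a classical target of PXR, had 163 and 214 FPKM in PCN libraries against 26.1 and 14.7 FPKM in vehicle libraries (log2 difference 3.19, limma adjusted p = 0.0640). The related Cyp3a25 had 184 and 182 FPKM against 53.1 and 33.1 FPKM (2.10, adjusted p = 0.0650) and Cyp3a44 had 5.71 and 9.05 FPKM against 1.88 and 1.24 FPKM (1.69, adjusted p = 0.150). These Cyp3a genes are paralogues whose shared sequence was not measured here. Cyp4f14, a fatty acid and leukotriene hydroxylase, was the most abundant of the list and had 215 and 206 FPKM in PCN libraries against 264 and 251 FPKM in vehicle libraries, and Cyp3a13 had 151 and 120 FPKM in PCN libraries against 112 FPKM in each vehicle library. With PCN, the Cyp2c55 level was therefore above that of each of these genes, whereas with vehicle it was below Cyp4f14 and Cyp3a13 in both libraries.

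**Figure D5:**
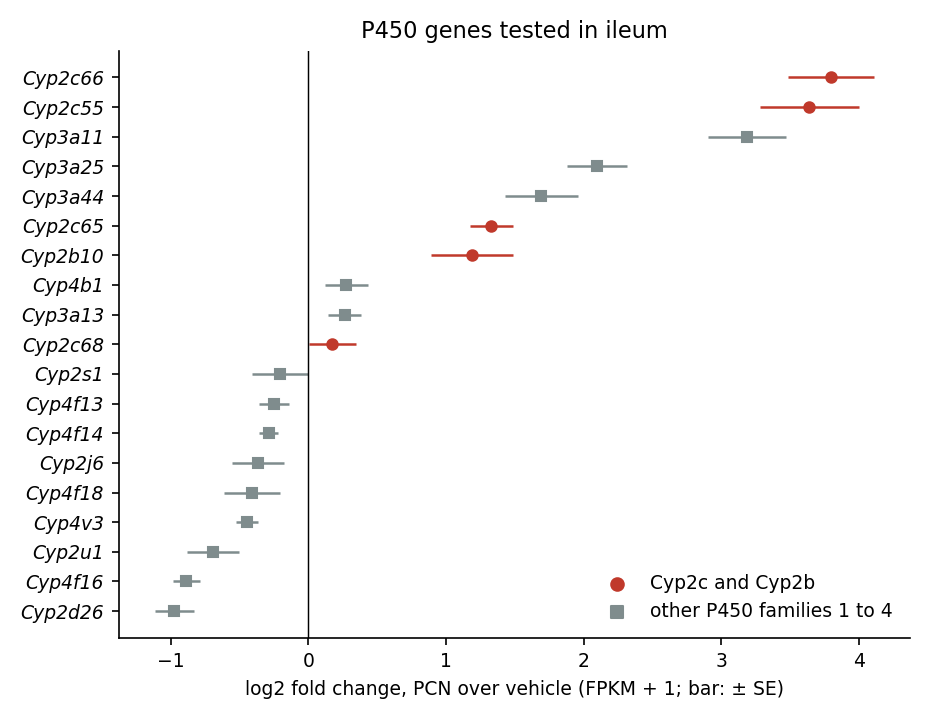
The log2 difference (PCN over vehicle, FPKM + 1) with its SE for the 5 Cyp2c and Cyp2b genes (red circles) and the 14 other P450 genes tested (grey squares), ordered by size. Cyp2c66 and Cyp2c55 stand at the top with Cyp3a11, Cyp3a25 and Cyp3a44 next, Cyp2c65 and Cyp2b10 follow, and the Cyp4f genes lie below 0.

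Among the genes for partners of P450 enzymes and for heme, Alas1 and Cyb5a had the largest log2 differences, both higher with PCN. Of 11 partner and heme genes none was called (up to 2 higher under the alternatives), and their median was −0.08. Both PCN libraries were above both vehicle libraries for 4 and below for 3. For this and the next 2 lists, the shares over all genes tested were 21.1% above and 19.1% below. Cyb5a, cytochrome b5, which can pass an electron to P450 enzymes, had 284 and 255 FPKM in PCN libraries against 158 and 145 FPKM in vehicle libraries (log2 difference 0.83, limma adjusted p = 0.0650). Alas1, the rate-limiting enzyme of heme synthesis, named after its values were seen as the largest difference of the list, had 45.3 and 49.2 FPKM against 25.6 and 21.9 FPKM (0.97, adjusted p = 0.0702). Pgrmc1, a heme-binding membrane protein that associates with P450 enzymes, had 162 and 149 FPKM against 142 and 132 FPKM. Among receptors and gut transcription factors 10 of 12 were tested and none was called, with 5 above, 1 below and a median of 0.11. Nr1i2 itself had 36.4 and 34.1 FPKM in PCN libraries against 27.9 and 31.3 FPKM in vehicle libraries (log2 difference 0.25, adjusted p = 0.539), and Nr1i3, which encodes the constitutive androstane receptor, had no row. The most abundant of this list were Hnf4a, a regulator of enterocyte genes, with 225 and 196 FPKM against 230 and 216 FPKM, and Nr1h4, the bile acid receptor FXR, with 134 and 109 FPKM against 95.9 and 77.4 FPKM. Genes that release arachidonic acid or process its epoxides and prostaglandins gave 0 calls among 10 tested of 14, with 3 above, 4 below and a median of −0.02. The most abundant of these were Hpgd, which inactivates prostaglandins, with 92.7 ± 5.72 FPKM with PCN and 110 ± 10.3 FPKM with vehicle, and Pla2g12b, of the phospholipase A2 family, with 43.5 ± 4.20 FPKM and 43.1 ± 5.32 FPKM. At an unadjusted p under 0.05, which 5.25% of all genes passed as higher and 4.11% as lower, 3 of the other P450 genes were higher and 5 lower, 3 partner and heme genes were higher and 1 lower, 1 receptor was higher, and 1 oxylipin gene was lower.

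The gene whose profile over the 4 libraries was most like that of Cyp2c55, among 11102 others, was its neighbour Cyp2c66, at a root mean square difference of 0.277 between centred log2(FPKM + 1) values. Cyp3a11 (0.347), Gstm3 (0.456), a glutathione transferase, B3galt5 (0.472), a galactosyltransferase, and Smco4 (0.499) came next. Gstm3 had 59.5 and 51.0 FPKM in PCN libraries against 10.5 and 5.11 FPKM in vehicle libraries, and B3galt5 had 34.7 and 34.8 FPKM against 3.15 and 3.09 FPKM. With 4 libraries in 2 groups, this measure finds mainly genes with a group difference of the same size. Cyp2c66 and Smco4 had vehicle values near 0 and were listed only through their PCN means. The likeness of Cyp2c66 also rests on the pseudocount of 1. Its log2 difference was 4.58 at a pseudocount of 0.5 and 6.14 at 0.1, against 3.66 and 3.67 for Cyp2c55. Nothing further is read from its first place.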

How the data were processed

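Libraries were made from total RNA of ileum with a SMARTER kit, as the labels state. The authors deposited FPKM (fragments scaled to transcript length and library size) for each transcript, on build mm10 per the submitters' processing notes. Aligner and estimation program are not given in the sources used here. Supplementary RNA-seq methods of the study name another tissue, kit, genome and unit, so they were not used. Transcript identifiers are of the Cufflinks form, so a value near or at 0 is an estimate. FPKM were summed per gene symbol, and those averaging 1 FPKM or more across the libraries entered a test on log2(FPKM + 1), which understates changes of low genes, with limma 3.58.1 (R 4.3.3) and a mean-variance trend. Tests were two-sided, with Benjamini-Hochberg adjustment over 11103 genes and a threshold of 0.05. Residual degrees of freedom were 2, and the procedure was tested on simulated data. Family sums, shares and ratios were compared by exact permutation over libraries.

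Named genes were all members and their rows, Nr1i2, for other P450 genes the 3 most abundant and the 3 with the largest change, for each further list the genes called and the 2 most abundant, and the 5 genes most like Cyp2c55. The members, lists and rules were chosen with earlier results of these data known. Colon, liver and smooth muscle lists are given in the text. Of the other marker lists, upper small intestine had 7 of 8 genes in the table (0 called), pancreas 1 of 8, fat 4 of 6, lymphocytes and plasma cells 6 of 8, and Paneth and goblet cells 7 of 8, with 0 called in each. Gene positions are from GENCODE M21 and promoters from RefSeq, where all 5 members matched by symbol. For Cyp2c65, Cyp2c68 and Cyp2b10 the RefSeq start differed from that of the GENCODE gene, and the Cyp2b10 window runs into that gene. Pairwise alignments were made with Biopython 1.88. Alternatives covered the pseudocount, the filter, scaling, the trend, the rows kept, a replicate block, a muscle covariate and each library left out.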

Additional observations from a re-analysis of the deposited data

How the results depend on the processing

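Under the 7 alternatives tried for each, the log2 difference of the summed FPKM was 2.65 to 3.49. The share difference of Cyp2c55 was 23.6 to 35.0 percentage points. With 2 libraries a group, leaving 1 out cannot move either value beyond the spread between libraries, and scaling cannot move a share. These ranges are therefore no test of stability. Cyp2b10 kept its direction and stayed uncalled in 14 alternatives (0.28 with the muscle covariate to 2.92 with a pseudocount of 0.1), and it was not tested at a mean of at least 5 FPKM. Cyp2c66 kept its direction in 14 and has no value once rows that share a value with another gene are dropped. The number of genes called higher and lower was 9 and 6 as reported. It was 5 higher with a pseudocount of 0.1, 34 and 22 with a mean of at least 5 FPKM, 2 and 0 without the trend, 1 and 0 over transcript rows, 30 and 15 without rows sharing a value, 0 and 0 with the muscle marker level as a covariate (777 genes at an unadjusted p under 0.05), and 34 and 16 without rows in the block of the opposite strand, an alternative chosen after seeing the data. With 1 library left out it was 0 to 8 higher and 0 to 12 lower. The log2 difference of Cyp2c66 lost its call at a pseudocount of 0.5 (4.58, adjusted p 0.0645) and 0.1 (6.14, 0.117), with no filter (3.80, 0.0552), without the trend (3.80, 0.121), over transcript rows (3.48, 0.142), with the muscle covariate (2.91, 0.382) and with 1 library left out (3.45 to 4.15). Cyp2c55 was called at a mean of at least 5 FPKM (3.64, 0.0247), without rows sharing a value (3.64, 0.0419), without opposite-strand rows (3.64, 0.0345) and without vehicle replicate 1, with 3.10 to 4.19 when 1 library was left out. Cyp2c65 was called at a mean of at least 5 FPKM (1.33, 0.0302) and without opposite-strand rows (1.33, 0.0461). Cyp2c68 turned negative with the muscle covariate (−0.33) and without vehicle replicate 2 (−0.014 to 0.36 over the 4 libraries left out in turn). Of the other P450 genes 2 were called higher and 1 lower at a mean of at least 5 FPKM, without rows sharing a value, without opposite-strand rows and with the replicate block, and 1 higher without vehicle replicate 1. Of the partner and heme genes 2 were called higher in the first 3 of these and 1 with the block. Median-ratio scaling changed no call of a member. The cause of these changes was not tested.

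The labels number the libraries 1 and 2 in both groups, and the deviations of libraries that share a number correlated at 0.0341 over all genes tested. Whether such libraries share more than the number is not stated in the labels. With a replicate block in limma 39 genes were called higher and 21 lower, with Cyp2c55 (3.64, adjusted p 0.00710), Cyp2c65 (1.33, 0.0151) and Cyp2c66 (3.80, 0.00710) among them. That fit leaves only 1 residual degree of freedom. These members had replicate 1 above replicate 2 in both groups, a gap that the block takes out of the spread. Nothing further is read from these calls.

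With 2 libraries a group and no read counts, small differences such as that of Cyp2c68 could not be resolved.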
